A study of Mus musculus with 8 samples.

Results

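The circadian clock genes described here are Per1, Per2, Per3, Nr1d1, Nr1d2, Dbp, Tef, Arntl, Clock and Cry1. They were found by symbol in the gene list of both matrices, all 10 of 10, among 27998 genes. Single-cell RNA sequencing had been done on left ventricular cells of male C57BL/6 mice aged 10 to 12 weeks, kept in a 12-h light and dark cycle. Cells were captured in droplets and each transcript was tagged with a unique molecular identifier (UMI), so counts stand for molecules and not for amplified copies. The 6 h group had 30 min of ischemia by a ligature on the left coronary artery followed by reperfusion (ischemia-reperfusion, IR), with hearts taken 6 h later. The control group is recorded at 0 h in the sample names, while the protocol describes a sham operation and tissue taken 6 h after surgery for both groups, so whether 0 h stands for sham surgery was not settled. The time of day of surgery and of tissue collection is not given in the sources used here, so time of day and IR cannot be told apart in any value that follows.

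The records list 4 samples per group, and the reporting summary states that 3 hearts were pooled into a sample, but no barcode names its sample. Each group was therefore 1 library, differences could not be set against a spread between samples, and no p values are given. Intervals are exact 95% intervals that cover counting error only. The 0 h library held 58653308 UMIs in 11620 barcodes and the 6 h library 75033226 UMIs in 8539 barcodes, with 30 barcodes shared. Cells were placed in a class by their own marker UMIs and are called fibroblast-like and so on. 91.8% of the 0 h and 92.3% of the 6 h cells that passed the filter received a class, and 9 classes had at least 50 cells in each library. In each of these 9 classes the own markers summed to a higher level than those of any other class in both libraries, as the choice by markers favours. The 6 h cells were deeper. 40.9% of them had more than 2500 genes, against 14.1% at 0 h, and the median UMIs of fibroblast-like cells were 5248 at 0 h and 13638 at 6 h. Levels are UMIs per 1000000 UMIs of the class total (CPM).

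The clock is a feedback loop of transcription factors that runs in nearly every cell of the body, the heart included. CLOCK and BMAL1, the product of Arntl, bind E-boxes in DNA and switch on Per and Cry genes, whose proteins return to block them, and also Nr1d1 and Nr1d2, which encode REV-ERB repressors, and Dbp and Tef, which encode factors that drive daily output genes. REV-ERB proteins in turn repress Arntl, Cry1, Npas2 and Nfil3. In peripheral organs of mice, which are active at night, Nr1d1 and Dbp transcripts are high during the day and Arntl transcripts from late night to early morning, so the balance of these genes is read as clock phase. Per1 and Per2 also respond directly to hormones and stress, outside the loop.

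All members are protein-coding genes on GRCm38 in GENCODE M21. The genes of the activating arm are Arntl (chr7:113207465-113314126, plus strand) and Clock (chr5:76209868-76304792, minus strand). The repressors are Per1 (chr11:69095217-69109960, plus strand), Per2 (chr1:91415982-91459324, minus strand), Per3 (chr4:151003652-151044665, minus strand) and Cry1 (chr10:85131700-85185064, minus strand). The REV-ERB genes are Nr1d1 (chr11:98767932-98775333, minus strand) and Nr1d2 (chr14:18204054-18239127, minus strand). The output factors are Dbp (chr7:45705088-45710203, plus strand) and Tef (chr15:81802421-81826863, plus strand).

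RefSeq promoter windows of build GRCm38.p6, running from 250 bases before to 50 after a start, were matched for 9 of the 10 members, with 14 windows in all since several members have more than 1 start. The E-box letters CACGTG, which read the same on both strands, occurred in windows of 3 members (Per1, Tef and Cry1). AGGTCA, the core letters bound by REV-ERB and ROR receptors, was searched on both strands and occurred in windows of 4 members (Per1, Nr1d2, Clock and Arntl, in the last after the start). Of the members' 14 windows, 4 held the E-box letters and 4 held AGGTCA or its reverse complement, and no match overlapped another. Among all 32851 windows, the shares were 7.15% and 16.3%. The windows of Per3, Nr1d1 and Dbp held neither. In fibroblast-like cells Nr1d2 (receptor letters) and Tef (E-box letters) were higher at 6 h and Cry1 (E-box letters) was lower. For each member with a match before the start, 1 window is shown, because members on both sides carry one. Each is written 5′ to 3′ on the gene's strand, without annotated exons, and capitals mark the E-box letters and the receptor letters, the latter read as TGACCT where they lie on the other strand.
Per1, chr11:69098699-69098947, plus strand: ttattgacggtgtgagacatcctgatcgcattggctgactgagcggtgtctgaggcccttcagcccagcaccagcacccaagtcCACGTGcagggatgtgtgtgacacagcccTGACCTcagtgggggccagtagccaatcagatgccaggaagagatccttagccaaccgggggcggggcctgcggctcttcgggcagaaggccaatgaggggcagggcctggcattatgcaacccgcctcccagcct
Nr1d2, chr14:18239128-18239356, minus strand: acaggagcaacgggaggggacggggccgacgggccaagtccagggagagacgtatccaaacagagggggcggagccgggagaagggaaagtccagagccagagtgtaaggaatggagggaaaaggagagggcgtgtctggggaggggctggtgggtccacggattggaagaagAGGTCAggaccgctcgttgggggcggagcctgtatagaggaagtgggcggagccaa
Tef, chr15:81811164-81811413, plus strand: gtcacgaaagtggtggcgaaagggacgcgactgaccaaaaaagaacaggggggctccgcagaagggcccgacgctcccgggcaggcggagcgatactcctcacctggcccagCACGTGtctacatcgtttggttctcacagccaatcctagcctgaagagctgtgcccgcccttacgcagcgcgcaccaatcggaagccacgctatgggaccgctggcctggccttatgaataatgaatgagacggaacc
Clock, chr5:76303503-76303752, minus strand: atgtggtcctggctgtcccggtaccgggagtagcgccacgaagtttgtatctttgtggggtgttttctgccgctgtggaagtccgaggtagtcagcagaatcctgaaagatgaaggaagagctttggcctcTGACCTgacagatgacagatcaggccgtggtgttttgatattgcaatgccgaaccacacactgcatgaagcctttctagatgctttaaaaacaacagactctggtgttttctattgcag
Cry1, chr10:85185065-85185304, minus strand: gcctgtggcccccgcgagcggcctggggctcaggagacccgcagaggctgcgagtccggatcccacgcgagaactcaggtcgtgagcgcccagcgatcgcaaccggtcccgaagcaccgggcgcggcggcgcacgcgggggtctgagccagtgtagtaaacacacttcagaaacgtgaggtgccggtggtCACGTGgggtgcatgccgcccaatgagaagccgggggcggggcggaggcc
The E-box lay 166 bases before the start in Per1, 138 in the Tef window shown (127 in the window of its other start, not shown) and 60 in Cry1, and the receptor letters 137 bases before the start in Per1, 77 in Nr1d2 and 119 in Clock. The windows of the other starts of Clock and Per1 held no match. The Per1, Tef and Clock windows shown lie within the gene coordinates given above. A match is a description of letters and no measurement of binding was made in these libraries.

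The question was whether the clock genes differed between the libraries in the same direction in all cell classes. They did not. REV-ERB and output genes were higher at 6 h in fibroblast-like, endothelial-like and mural-like cells, while Arntl and Cry1 were lower in fibroblast-like and mural-like cells. In leukocyte classes most members stayed within 2-fold, and Cry1 was higher in monocyte-like and neutrophil-like cells. The REV-ERB genes were also higher in macrophage-like cells, with log2 ratios of 2.90 (Nr1d1) and 1.96 (Nr1d2). In T cell-like cells Nr1d2 was higher too (1.27, on 9 and 24 UMIs). Neither REV-ERB gene was at least 2-fold lower in any class with enough UMIs. Of the 90 pairs of a member and a class, 66 had at least 30 UMIs over both libraries. Of these, 23 were at least 2-fold higher at 6 h, 7 at least 2-fold lower and 35 within 2-fold. The remaining pair, Nr1d1 in neutrophil-like cells, had 0 UMIs at 0 h and 42 at 6 h, which does not settle a 2-fold difference at the depth of the 0 h cells. The 3 stromal and vascular classes held 13 higher and 5 lower pairs of 28, and the 6 leukocyte classes held 10 higher and 2 lower of 38. Over the 9 classes, 3.53% to 12.7% of all genes tested were higher and 3.27% to 23.5% lower, the last in neutrophil-like cells. The share of lower pairs among all 66 lies within that range. By class, 3 of 10 members were lower in fibroblast-like cells and 2 of 10 in mural-like cells, where 16.6% and 8.21% of all genes tested were. In endothelial-like cells 0 of 8 were lower, where 8.41% of all genes tested were. The share of higher pairs lies above its range in both groups of classes. Among the higher leukocyte pairs, monocyte-like Nr1d1 and neutrophil-like Nr1d2 and Dbp rest on 1 or 2 UMIs at 0 h.

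**Figure D1:**
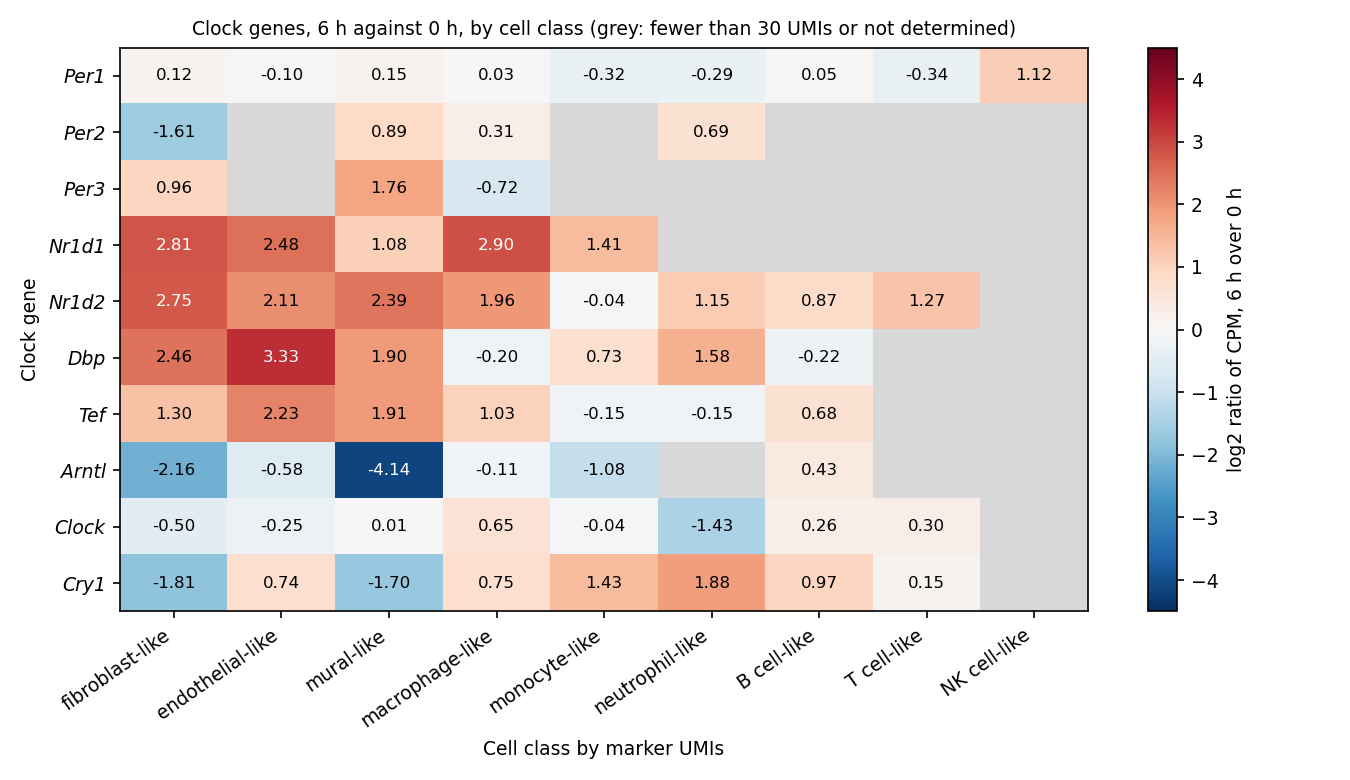
Log2 ratio of CPM, 6 h over 0 h, for each clock gene (rows) in each cell class (columns), with red for higher and blue for lower at 6 h and grey where fewer than 30 UMIs were counted or the ratio was not determined. Nr1d1, Nr1d2, Dbp and Tef are all above 1 in the 3 stromal and vascular classes, while Cry1 is -1.81 in fibroblast-like and 1.88 in neutrophil-like cells.

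Fibroblast-like cells, with 3576 cells at 0 h and 1587 at 6 h, gave the most UMIs for every member except Per1, which was counted most in neutrophil-like cells. Of the 10 members, 4 were at least 2-fold higher and 3 at least 2-fold lower, where 10.1% of the 12702 genes tested in these cells were higher and 16.6% lower. The median log2 ratio was 0.54 over the members and -0.10 over all genes tested. Nr1d1, the gene of REV-ERBα, went from 17.7 CPM (356 UMIs) at 0 h to 125 CPM (2939 UMIs) at 6 h, a log2 ratio of 2.81 (2.66 to 2.98). Nr1d2, the gene of REV-ERBβ, went from 12.7 to 85.2 CPM, a log2 ratio of 2.75 (2.56 to 2.95). Dbp, an output factor under direct E-box control, went from 13.4 to 73.8 CPM, a log2 ratio of 2.46 (2.27 to 2.65). Among all genes tested in these cells, the ratios of Nr1d1, Nr1d2 and Dbp stood at percentiles 98.7, 98.7 and 98.3. Tef, a relative of Dbp, was higher by less, from 18.5 to 45.6 CPM.

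In the same cells the activator Arntl went from 41.1 CPM (825 UMIs) to 9.21 CPM (217 UMIs), a log2 ratio of -2.16 (-2.38 to -1.94). Cry1, a repressor with a late peak in the cycle, went from 24.6 to 7.01 CPM, a log2 ratio of -1.81 (-2.08 to -1.56). In endothelial-like and macrophage-like cells both REV-ERB genes were also higher, but Arntl (-0.58 and -0.11) and Cry1 (0.74 and 0.75) stayed within 2-fold. A part of REV-ERB in these ratios was not tested. Clock, the partner of BMAL1 and a gene of weak rhythm, went from 60.8 to 42.9 CPM and stayed within 2-fold. The Per genes split. Per1 was 44.5 CPM at 0 h and 48.2 at 6 h, with a log2 ratio whose interval spans 0 (0.12, -0.01 to 0.24). Per2 was lower at 6 h, from 20.1 to 6.58 CPM (log2 ratio -1.61, -1.89 to -1.34), and Per3 went from 16.1 to 31.3 CPM, just within 2-fold. Per2 was thus on the side of Arntl and Cry1 and Per3 on that of the REV-ERB genes.

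**Figure D2:**
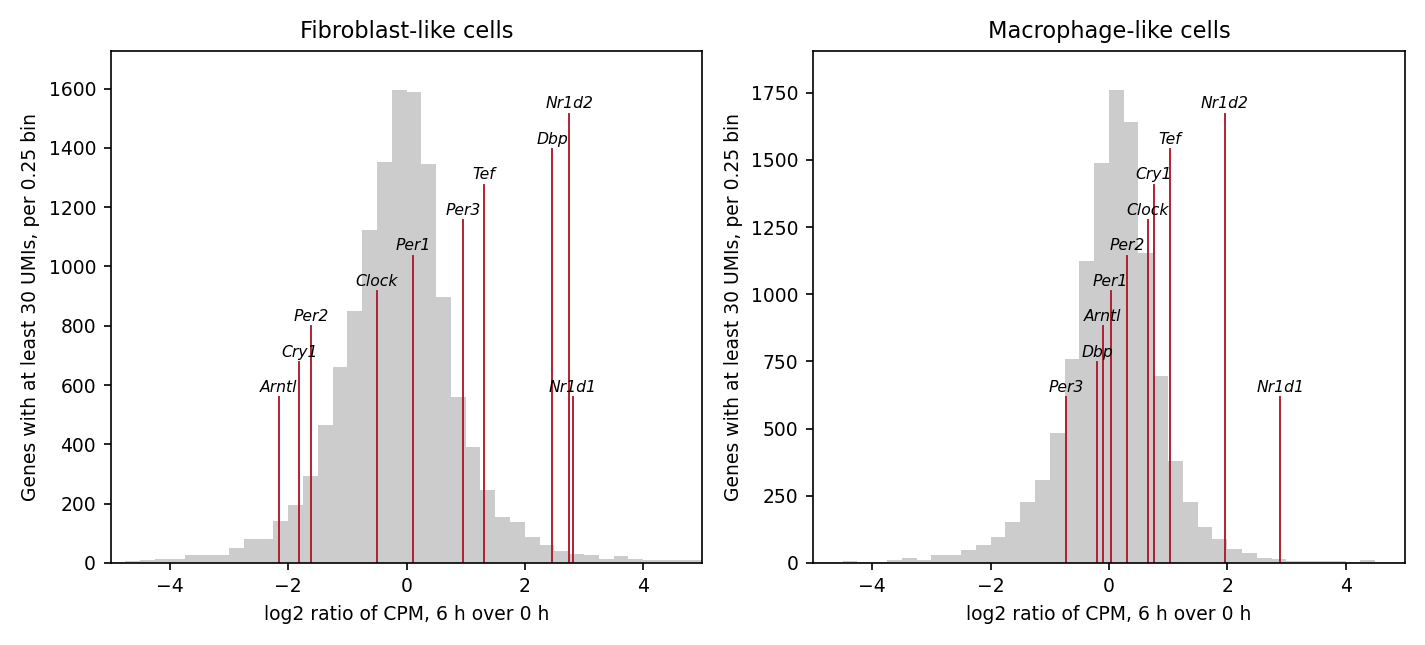
Histograms of log2 ratios of CPM, 6 h over 0 h, for all genes with at least 30 UMIs in fibroblast-like (left) and macrophage-like cells (right), in bins of 0.25, with a labelled line at each clock gene (line heights only keep the labels apart). In fibroblast-like cells the members lie on both sides, from -2.16 for Arntl to 2.81 for Nr1d1, while in macrophage-like cells only Nr1d1, Nr1d2 and Tef pass 1 in either direction.

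Mural-like cells, the pericytes and smooth muscle cells around vessels, numbered 785 at 0 h and 179 at 6 h. Of the 10 members, 5 were higher and 2 lower, where 5.95% of all genes tested were higher and 8.21% lower. Arntl had 61 UMIs at 0 h (31.5 CPM) and 2 at 6 h (1.79 CPM), a log2 ratio of -4.14 with a wide interval (-7.21 to -2.22). Cry1 went from 40.8 to 12.5 CPM, a log2 ratio of -1.70 (-2.64 to -0.87). Dbp reached 124 CPM at 6 h from 33.1 at 0 h, the highest 6 h level of Dbp of the 9 classes and with an interval clear of the next. Nr1d2, Tef, Per3 and Nr1d1 had log2 ratios of 2.39, 1.91, 1.76 and 1.08. The smaller ratio of Nr1d1 came with a 0 h level of 40.3 CPM, above the interval of every other class. Per2, with 30 and 32 UMIs, had a log2 ratio of 0.89 (0.12 to 1.66) in mural-like cells, against -1.61 in fibroblast-like cells, and the intervals do not overlap.

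Endothelial-like cells numbered 303 and 111. Of 8 members with enough UMIs, 4 were higher and 0 lower, where 6.25% of all genes tested were higher and 8.41% lower. Dbp had 8 UMIs at 0 h and 46 at 6 h, from 5.32 to 53.3 CPM (log2 ratio 3.33, 2.23 to 4.62). The ratio was 2.12 with at most 2500 genes per cell and 1.77 in cells thinned to 1000 UMIs, on 9 and 4 UMIs at 6 h. Nr1d1 (2.48), Tef (2.23) and Nr1d2 (2.11) had log2 ratios with intervals above 0. A difference in Arntl or Cry1 was not detectable at this depth. Arntl had 26 and 10 UMIs (log2 ratio -0.58, -1.79 to 0.52), and Cry1 25 and 24 (0.74, -0.13 to 1.61), with intervals that span 0. Endothelial-like and mural-like cells held more mitochondrial UMIs than the other classes at 6 h, 13.5% and 12.7%, against 11.6% and 7.75% at 0 h, and its part in the endothelial-like ratios was not tested. In mural-like cells with at most 10% mitochondrial UMIs, the log2 ratios of Dbp (2.22), Nr1d1 (1.39) and Cry1 (-1.58) kept their side.

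In macrophage-like cells, 3309 at 0 h and 1000 at 6 h, the REV-ERB genes and Tef were higher while Dbp and Arntl were not detectably different. Of 10 members, 3 were higher and 0 lower, where 9.13% of all genes tested were higher and 9.14% lower. Nr1d1 went from 2.29 CPM (40 UMIs) to 17.0 CPM (167 UMIs), a log2 ratio of 2.90 (2.39 to 3.43). Nr1d2 went from 3.77 to 14.7 CPM (1.96, 1.53 to 2.40) and Tef from 7.03 to 14.4 CPM (1.03, 0.67 to 1.39). Both fell short of 2-fold in an alternative, Nr1d2 in cells thinned to 1000 UMIs (0.73, on 12 and 6 UMIs) and Tef when centred on the median of all genes (0.93) or in cells with resident markers (0.90). Nr1d1 differed by as much as in fibroblast-like cells, although its 6 h level was 13.7% of theirs. Dbp, at 9.26 and 8.06 CPM, and Arntl, at 11.1 and 10.3 CPM, had intervals that span 0. Per3 was lower by less than 2-fold (-0.72, -1.32 to -0.16), and Clock (0.65) and Cry1 (0.75) were higher by less than 2-fold, each opposite in sign to the fibroblast-like value. For Clock the sign held in the subsets described further on, but in macrophage-like cells above 2500 genes the intervals of Cry1 (0.22, -0.48 to 0.96) and Per3 (-0.23, -1.25 to 0.86) span 0, and Per3 was 0.48 in cells thinned to 1000 UMIs. The interval of Dbp in macrophage-like cells, -0.61 to 0.20, did not overlap that in fibroblast-like cells, nor did those of Arntl (-0.47 to 0.25) and Cry1 (0.31 to 1.20).

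**Figure D3:**
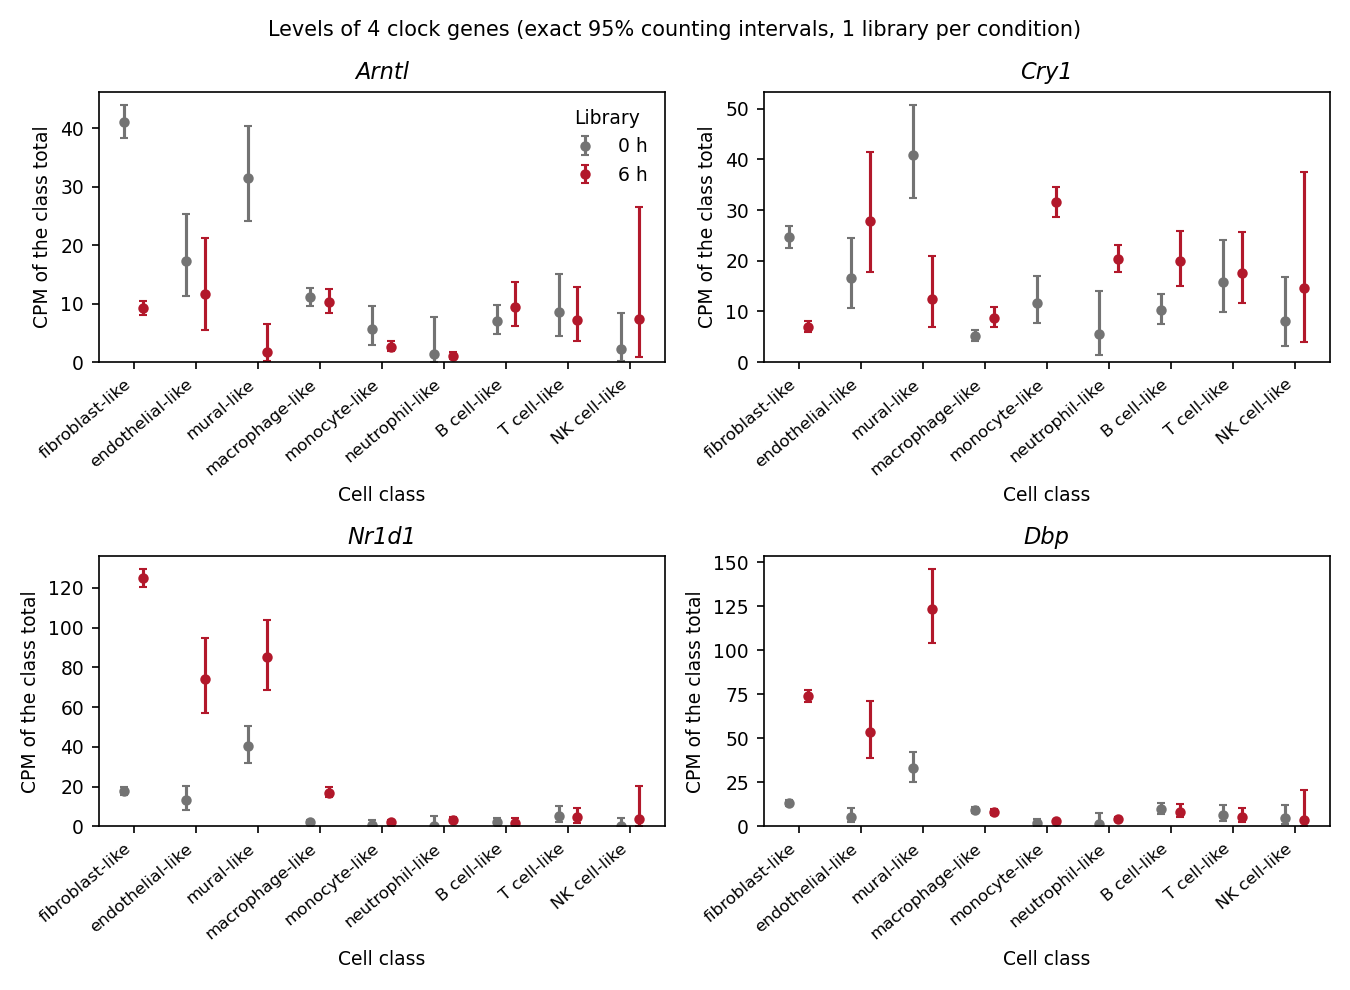
CPM of Arntl, Cry1, Nr1d1 and Dbp in each of the 9 cell classes at 0 h (grey) and 6 h (red), with exact 95% counting intervals and 1 library per condition. Arntl was 41.1 and 31.5 CPM in fibroblast-like and mural-like cells at 0 h and 9.21 and 1.79 CPM at 6 h, while the 2 points of macrophage-like cells lie at 11.1 and 10.3 CPM.

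Monocyte-like cells (298 and 1149 cells) and neutrophil-like cells (269 and 2461 cells) are blood cells that enter the injured heart, so the cells of the libraries need not be the same population. In monocyte-like cells 2 of 8 members were higher and 1 lower, where 11.4% of all genes tested were higher and 16.4% lower. Cry1 went from 27 to 438 UMIs, 11.7 to 31.5 CPM (log2 ratio 1.43, 0.87 to 2.05). Arntl went from 13 to 37 UMIs, 5.64 to 2.66 CPM (-1.08, -2.03 to -0.05). Nr1d1, with 2 and 32 UMIs, had a log2 ratio of 1.41 whose interval spans 0 (-0.56 to 4.52). In neutrophil-like cells 3 of 8 members were higher and 1 lower, where 10.9% of all genes tested were higher and 23.5% lower, and the median over all genes was -0.40. Their 0 h sum was only 725583 UMIs, and the members other than Per1 had 0 to 11 UMIs in it. Cry1 had 4 and 246 UMIs, 5.51 and 20.3 CPM (1.88, 0.51 to 3.77). Dbp (1.58) and Nr1d2 (1.15) rest on 1 UMI each at 0 h and their intervals span 0. Clock went from 11 to 68 UMIs with a log2 ratio of -1.43 (-2.36 to -0.36), a direction that turned under 3 other ways of choosing or thinning the cells (0.13 to 0.62).

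Lymphocyte classes held few of the pairs past 2-fold. In B cell-like cells, 1222 and 740, 0 of 7 members passed 2-fold, where 3.53% of all genes tested were higher and 4.88% lower. The nearest was Cry1, from 10.2 to 19.9 CPM (log2 ratio 0.97, 0.39 to 1.55), followed by Nr1d2, from 9.56 to 17.5 CPM (0.87, 0.26 to 1.49). Arntl had 33 and 27 UMIs and Dbp 46 and 24, and both intervals span 0. In T cell-like cells, 361 and 254, 1 of 4 members was higher and 0 lower, where 4.76% of all genes tested were higher and 3.27% lower. This member was Nr1d2, with 9 and 24 UMIs (1.27, 0.11 to 2.56), and its ratio was 0.092 in cells thinned to 1000 UMIs, on 4 and 3 UMIs. In NK cell-like cells, 232 and 69, only Per1 had enough UMIs, 29 and 20, and was higher (1.12, 0.22 to 1.99), where 12.7% of all genes tested were higher and 9.39% lower.

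By member, the REV-ERB gene Nr1d2 was higher in 6 of 8 classes with enough UMIs and Nr1d1 in 5 of 6, and neither was lower in any of them. The interval lay above 0 in 6 of 8 classes for Nr1d2 and in 4 of 6 for Nr1d1. Monocyte-like Nr1d1 and neutrophil-like Nr1d2 rest on 2 UMIs and 1 UMI at 0 h, and turned to -1.93 and -2.19 in cells thinned to 1000 UMIs. Dbp was higher in 4 of 7 classes, with the interval above 0 in 3, and Tef in 4 of 7. Arntl was lower in 3 of 6 classes and higher in 0. The monocyte-like value of Arntl (-1.08, -2.03 to -0.05) turned to 0.066 in cells thinned to 1000 UMIs, on 1 UMI at 0 h. Cry1 was split, with 2 classes lower, 2 higher and 4 within 2-fold. Per1, counted in all 9 classes, was within 2-fold in 8. It was highest in neutrophil-like cells in both libraries, at 193 and 158 CPM, clear of the next class each time.

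The order of levels among classes also moved. At 0 h Arntl was highest in fibroblast-like (41.1 CPM) and mural-like cells (31.5 CPM), whose intervals overlap, followed by endothelial-like cells (17.3 CPM) and macrophage-like cells (11.1 CPM). At 6 h endothelial-like (11.6 CPM), macrophage-like (10.3 CPM), B cell-like (9.45 CPM) and fibroblast-like cells (9.21 CPM) came first and did not differ beyond their intervals, with mural-like cells second from the bottom. For Nr1d1 the 0 h order began with mural-like cells (40.3 CPM), clear of fibroblast-like cells (17.7 CPM), and the 6 h order with fibroblast-like cells (125 CPM), clear of mural-like cells (85.1 CPM). Cry1 was highest in mural-like cells at 0 h (40.8 CPM). At 6 h its highest level was in monocyte-like cells (31.5 CPM), overlapping endothelial-like cells (27.8 CPM), and its lowest in fibroblast-like cells (7.01 CPM).

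A ratio that needs no scaling was formed in each class and library from the summed UMIs of Per1, Per2, Per3, Nr1d1, Nr1d2, Dbp and Tef over those of Arntl, Clock and Cry1, here called the day-to-night ratio. Its interval lay above 0 in the 3 stromal and vascular classes and in no leukocyte class. In fibroblast-like cells it was 1.13 at 0 h and 7.03 at 6 h, a log2 change of 2.64 (2.52 to 2.75). In mural-like cells it was 1.34 and 6.32, a log2 change of 2.24 (1.82 to 2.66), and in endothelial-like cells 0.924 and 3.11, a log2 change of 1.75 (1.25 to 2.25). Macrophage-like cells had ratios of 2.32 and 2.14, a log2 change of -0.12 (-0.30 to 0.07). Monocyte-like cells had 2 and 1.29 (log2 change -0.64), the one class whose interval lies below 0, with its upper end at -0.28. The changes of neutrophil-like (-0.41), B cell-like (-0.32), T cell-like (-0.26) and NK cell-like cells (1.09, -0.29 to 2.55) had intervals that span 0, and that of NK cell-like cells overlaps the endothelial-like one. The 6 h ratios themselves overlapped between the groups of classes, with 7.23 in neutrophil-like and 5.11 in NK cell-like cells.

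Per1 made up the larger part of the day sum in every leukocyte class at 0 h, so the ratio was also taken without Per1 and Per2, which acute signals induce. The change was then 3.30 in fibroblast-like, 2.57 in mural-like and 2.42 in endothelial-like cells, all larger than with them. In macrophage-like cells it turned to 0.52 (0.28 to 0.76), with ratios of 0.638 and 0.916. The number of classes with a lower ratio at 6 h went from 5 to 3 of 9 without these genes. B cell-like (-0.10, -0.56 to 0.36) and T cell-like cells (-0.0042, -0.83 to 0.82) had intervals that span 0. Neutrophil-like cells turned to 1.08 (-0.59 to 3.14), on 4 day-gene UMIs at 0 h, NK cell-like cells had 1.51 (-0.08 to 3.14), and the monocyte-like interval no longer lay below 0 (-0.27, -0.92 to 0.41). Clock made up much of the night sum, with 489 of 774 UMIs in macrophage-like cells at 0 h. When Clock was left out as well, the monocyte-like interval again lay below 0 (-0.84, -1.61 to -0.06). The macrophage-like change was then 0.80 (0.48 to 1.13) and the neutrophil-like change -0.26 (-2.50 to 2.09).

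**Figure D4:**
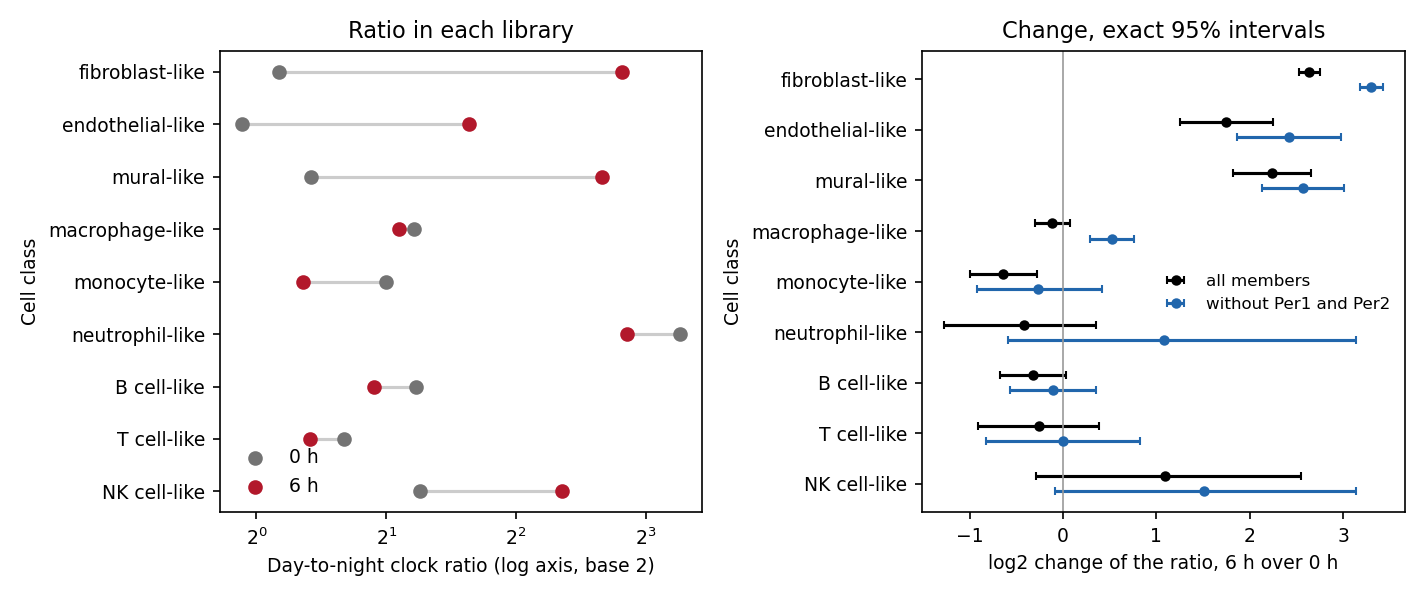
Left, the day-to-night clock ratio in each class at 0 h (grey) and 6 h (red) on a log axis of base 2, and right, its log2 change with exact 95% intervals for all members (black) and without Per1 and Per2 (blue). Fibroblast-like, endothelial-like and mural-like cells lie at 2.64, 1.75 and 2.24 with intervals above 0, and the macrophage-like value moves from -0.12 to 0.52 without Per1 and Per2.

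The pattern was looked for again within classes, in subsets cut by markers after the class values had been seen. Fibroblast-like cells with at least 2 UMIs of Pi16, Dpp4, Cd55 or Sema3c, genes of adventitial fibroblasts, numbered 2728 and 1281, and those with 0 UMIs of these genes 458 and 180. The day-to-night ratio differed by 2.70 (2.58 to 2.82) in the former and 2.26 (1.86 to 2.66) in the latter. Arntl was lower in both, with log2 ratios of -2.21 and -1.83, and Nr1d1 higher in both, at 2.86 and 2.56. Mural-like cells with the pericyte genes Kcnj8, Abcc9 or Vtn had a change of the ratio of 2.56 (2.02 to 3.11) and those without 1.64 (0.91 to 2.37). Nr1d1 was 1.46 (0.93 to 1.99) in those with pericyte genes and 0.60 (-0.36 to 1.58) in those without. Per2 was 1.83 (0.81 to 2.90) with them and -0.76 (-2.43 to 0.71) without, on 14 and 6 UMIs. The latter interval overlaps the fibroblast-like one. Arntl had 43 UMIs at 0 h and 0 at 6 h in cells with pericyte genes, a log2 ratio of at most -2.73 with 3 UMIs set in place of 0.

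Macrophage-like cells with at least 2 UMIs of Lyve1, Folr2, Timd4 or Cd163, genes of long-lived resident macrophages, numbered 1665 and 644. Nr1d1 went from 2.52 to 19.9 CPM in them (log2 ratio 2.98, 2.36 to 3.66), Nr1d2 from 4.34 to 17.1 CPM, and Arntl from 13.9 to 11.2 CPM with an interval that spans 0. Macrophage-like cells without any of these genes, 1209 and 262, had only 7 and 16 UMIs of Nr1d1. In cells above 2500 genes, where the libraries are closer in depth, the day-to-night ratio differed by 2.61 (2.44 to 2.78) in 611 and 1386 fibroblast-like cells and by 0.04 (-0.29 to 0.37) in 282 and 559 macrophage-like cells. This ratio holds all members, among them Per1 with 200 and 491 UMIs in these macrophage-like cells, and was not formed without Per1 and Per2. In the same cells Nr1d1 (2.45, 1.57 to 3.49) and Nr1d2 (1.54, 0.82 to 2.34) were higher at 6 h.

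**Figure D5:**
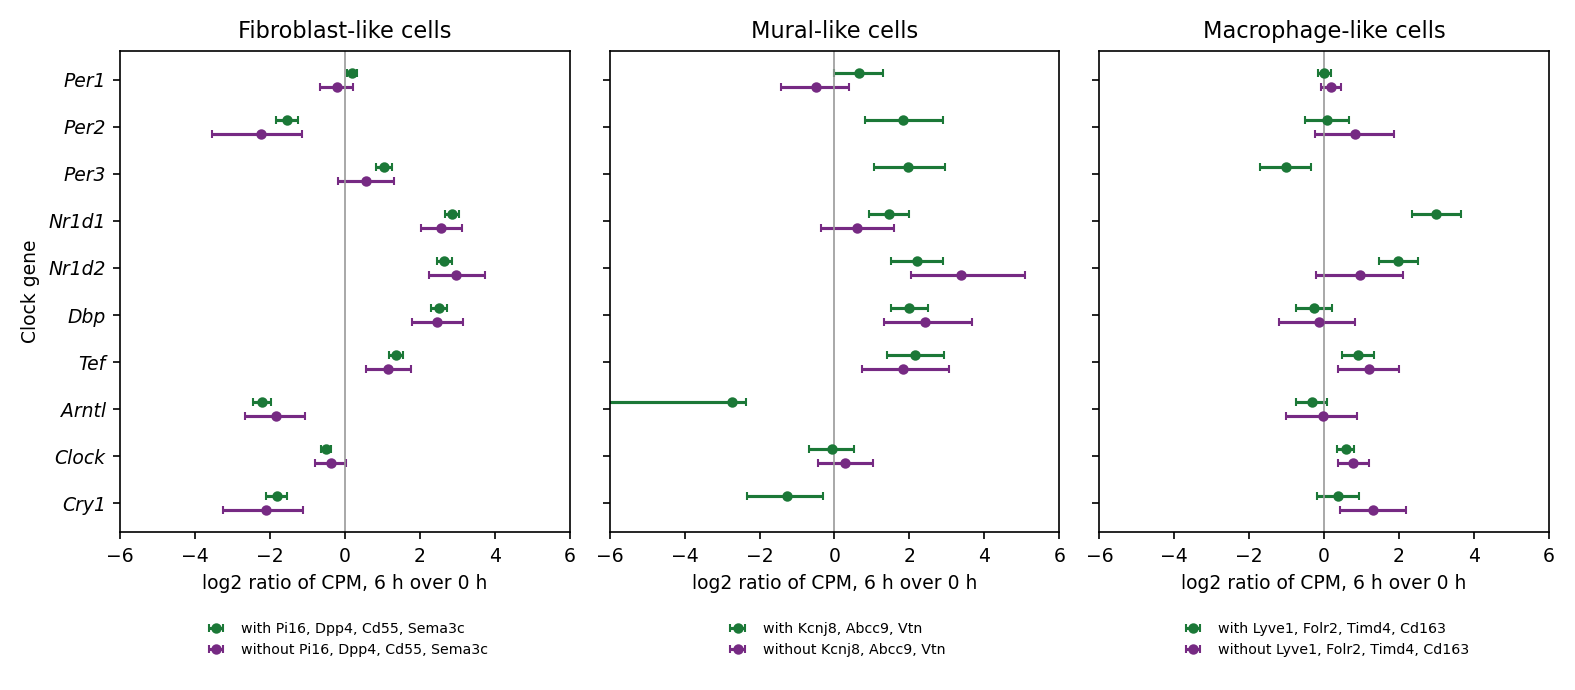
Log2 ratio of CPM, 6 h over 0 h, with exact 95% intervals, of each clock gene with at least 30 UMIs in cells with (green) and without (purple) the named marker genes, in fibroblast-like, mural-like and macrophage-like cells. Both fibroblast-like subsets show Arntl below 0 (-2.21 and -1.83) and Nr1d1 above 0 (2.86 and 2.56), and the mural-like Arntl point is a bound, set at 3 UMIs in place of 0.

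RNA set free from broken cells can enter other droplets. Fibroblast markers summed in the other 8 classes to between 0.42% and 2.31% of their level in fibroblast-like cells. If the same share of the fibroblast level of Nr1d1 is taken as free RNA at 6 h, it comes to 5.84% of the Nr1d1 level in macrophage-like cells, 2.61% in endothelial-like and 3.38% in mural-like cells. In monocyte-like, neutrophil-like and B cell-like cells it comes to 52.0%, 50.8% and 62.9%, so the low Nr1d1 levels there are close to background. For Nr1d2 and Dbp in neutrophil-like cells at 6 h, both counted as higher, it comes to 39.4% and 25.2%. For Cry1 in monocyte-like and neutrophil-like cells the share is 0.213% and 0.487%.

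The rest of the pathway was taken from a list of 24 other clock genes, of which 22 had enough UMIs in at least 1 class and 16 in at least 5. In fibroblast-like cells 2 of 22 were higher and 2 lower, where 10.1% and 16.6% of all genes tested were, so neither share exceeded the background. The other 18 stayed within 2-fold, and the median log2 ratio of the list was 0.09. Among them Hlf (-0.29, -0.43 to -0.15) and Usp2 (-0.79, -1.02 to -0.55) lay below 0. Csnk1d (0.67, 0.56 to 0.78) and Nampt (0.51, 0.40 to 0.62) lay above 0. In endothelial-like cells 1 of 14 was higher and 0 lower, where 6.25% and 8.41% of all genes tested were. This gene was Hlf, with 17 and 21 UMIs (1.11, 0.11 to 2.12). In mural-like cells 3 of 18 were higher and 2 lower, where 5.95% and 8.21% of all genes tested were. The genes at least 2-fold lower were the same in fibroblast-like and mural-like cells. Npas2, a paralog of Clock that partners BMAL1 and is repressed by REV-ERB, had 487 UMIs at 0 h and 31 at 6 h in fibroblast-like cells, from 24.3 to 1.32 CPM (log2 ratio -4.20, -4.78 to -3.68). In mural-like cells Npas2 had 33 UMIs at 0 h and 0 at 6 h, a log2 ratio of at most -2.66 with 3 UMIs set in place of 0. Nfil3, a repressor that competes with DBP and TEF for their sites, went from 58.2 to 13.1 CPM in fibroblast-like cells (-2.15, -2.34 to -1.97) and from 31.0 to 13.4 CPM in mural-like cells (-1.21). In NK cell-like cells, where Nfil3 also serves development, it was higher (1.06, 0.37 to 1.72).

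Ciart, an E-box gene whose product represses CLOCK and BMAL1, was higher in fibroblast-like (1.85, 13 and 55 UMIs) and macrophage-like cells (1.77, 21 and 40 UMIs), and lower in B cell-like cells (-1.33, 58 and 14 UMIs). Bhlhe40, an E-box repressor that inflammatory signals also induce, was higher in mural-like (1.19), macrophage-like (1.30), monocyte-like (2.15) and neutrophil-like cells (2.30). Klf10, an output gene that also answers to TGF-β, was higher in mural-like (2.09) and macrophage-like cells (1.16). Wdr5, which binds PER complexes, was higher in fibroblast-like cells (1.39), and Cry2, the other cryptochrome, in macrophage-like cells (1.10). Timeless was higher in mural-like cells (1.04) and lower in macrophage-like (-1.84) and monocyte-like cells (-3.28). Single classes held lower Rora and Csnk1e (B cell-like, -1.25 and -1.15) and Btrc (monocyte-like, -1.56), and Nono was lower in monocyte-like (-1.23) and neutrophil-like cells (-1.77). The other 5 genes with enough UMIs in at least 5 classes, among them the kinase gene Csnk1d, passed 2-fold in no class.

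Signals that also act on Per1 and Per2 were read from 3 lists in the same cells. Of 10 immediate-early genes, which dissociation and stress induce, 9 were lower at 6 h in fibroblast-like cells (median log2 ratio -1.22) and 0 in mural-like and macrophage-like cells. Of all genes tested, 16.6% were lower in fibroblast-like, 8.21% in mural-like and 9.14% in macrophage-like cells. Fos was lower in 3 and Atf3 in 4 of 9 classes, and Egr1 was lower in 3 and higher in 2. Of 9 glucocorticoid-induced genes, 4 were higher and 0 lower in each of fibroblast-like, endothelial-like and macrophage-like cells. Of all genes tested in these classes, 10.1%, 6.25% and 9.13% were higher. In mural-like cells 3 of 8 were higher, in B cell-like 3 of 7 and in monocyte-like 3 of 9, where 5.95%, 3.53% and 11.4% of all genes tested were. Neutrophil-like and NK cell-like cells held 1 higher gene each and T cell-like cells 0. Fkbp5, an inhibitor of the glucocorticoid receptor that the receptor itself induces, was higher in 7 of 9 classes, with log2 ratios of 1.30 in fibroblast-like, 3.24 in mural-like, 3.76 in macrophage-like and 1.67 in B cell-like cells. Lcn2 was higher in 5 of 6 classes, and Zbtb16 was higher in 3 and lower in 1 of 6. Tsc22d3 (GILZ), another target of the receptor, was higher in 0 of 9 classes and lower in monocyte-like (-2.98) and neutrophil-like cells (-2.27), and 2 genes of the list were lower in each of these classes. Among 7 heat-shock genes, Hspa1a was higher in 8 and Hspa1b in 6 of 9 classes, while Hsph1 was lower in 5. The part of these signals in the clock genes' ratios was not tested.

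Over the 18 points of 9 classes and 2 libraries, the genes whose CPM followed Dbp most closely by Spearman's rho were Ipo4 (0.90), Rcl1 (0.90), Hmgn1 (0.89), Atxn2 (0.89) and Akt1s1 (0.89), of 6925 genes compared. For Arntl they were Tmem242 (0.85), Fnta (0.82), Ankrd40 (0.82), Cnpy4 (0.81) and Slc5a3 (0.80). The points share 2 libraries, and these values mostly order the cell classes.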

How the data were processed

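Per the labels, left ventricles were dissociated enzymatically and libraries made on the 10× Genomics platform. The authors aligned reads to mm10 with Cell Ranger (version 3.1.0 in the matrix headers) and deposited raw UMI counts per gene and barcode, pooling the samples of a condition into 1 matrix of called cells, so that each condition is 1 library of 4 recorded samples. Here, cells with at least 200 genes and at most 30% mitochondrial UMIs were kept (11377 of 11620 and 8260 of 8539), with no upper gene limit, since the 2500-gene limit of the methods removes mostly deep 6 h cells; it was run as an alternative. No doublet caller was run. A cell needed at least 3 of the markers of a class and a score 1.5 times that of the next class, otherwise it stayed unassigned (929 and 639 cells). Of 114 markers, 110 were in the matrices, and of 10 glucocorticoid-induced genes 9. UMIs were summed per class, scaled to CPM, and compared as log2 ratios with exact conditional intervals (scipy 1.17.1, numpy 2.4.6, pandas 2.3.3, Python 3.11.15). Genes with at least 30 UMIs over both libraries count as tested for size, at a fixed fold of 2, and a count of 0 was set to 3 UMIs. Tests of significance were not possible with 1 library per condition, and the code was tested on simulated data. All members were named in every class, other clock genes where counted in at least 5 classes and past 2-fold, other lists by counts with up to 4 genes, and the 5 genes most like Dbp and Arntl. Npas2, Hlf, Usp2, Csnk1d and Nampt fall outside that rule and were named after their values were seen, as were the subsets within classes. Markers and lists were chosen with earlier results of these data known. Alternatives were the gene and mitochondrial limits, scaling, thinning, class rules, the members in the ratio and free RNA.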

Additional observations from a re-analysis of the deposited data

Results flagged for a closer look

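Cry1 had opposite directions past 2-fold in different cell classes. Its log2 ratio of 6 h over 0 h was -1.81 in fibroblast-like and -1.70 in mural-like cells, and 1.43 in monocyte-like and 1.88 in neutrophil-like cells. The difference between the classes was not tested, since each condition is 1 library, and the 0 h value of neutrophil-like cells rests on 4 UMIs.

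Nr1d1 was also higher at 6 h in Schwann cell-like cells, which were too few to be compared (38 at 0 h and 8 at 6 h). It had 2 and 7 UMIs there, a log2 ratio of 2.78 (0.39 to 6.08), in cells whose fibroblast markers summed to 8.97% and 10.2% of the level in fibroblast-like cells.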

How the results depend on the processing

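The 3 main counts were 23 higher and 7 lower pairs of 66 and 5 of 9 classes with a lower day-to-night ratio. With at most 2500 genes per cell, which left 201 fibroblast-like cells at 6 h, 4 of 51 pairs were lower, and with cells thinned to 1000 UMIs 4 of 31 were lower and 10 higher, with fewer UMIs counted in both. In classes of at least 200 cells, which leave out endothelial-like, mural-like and NK cell-like cells, 13 of 47 pairs were higher. Without Per1 and Per2, and also without Clock (chosen after seeing the data), 3 of 9 classes had a lower ratio. Clock in neutrophil-like cells turned to 0.37 with at most 2500 genes, 0.62 when thinned and 0.13 with 4 markers and a lead of 2, on 1 or 2 UMIs at 0 h. When thinned, Nr1d1 (-1.93) and Arntl (0.066) in monocyte-like and Nr1d2 in neutrophil-like cells (-2.19) also turned, on 1 UMI each at 0 h. Of the 30 pairs past 2-fold, 26 kept their direction and 21 stayed past 2-fold in all alternatives that gave them a value. Arntl in fibroblast-like cells ranged from -2.46 to -1.15 and Nr1d2 in macrophage-like cells from 0.73 to 2.02. The change of the ratio ranged from 2.11 to 4.22 in fibroblast-like and from 2.23 to 4.09 in mural-like cells. A mitochondrial limit of 10% left 39 endothelial-like cells at 6 h, too few for a value. Centring on the median of all genes shifts neutrophil-like cells by 0.40 and monocyte-like cells by 0.18, and gave 24 higher and 6 lower pairs. No paired analysis was possible because cells carry no sample, and no replicate could be left out for the same reason.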

Other observations

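Cardiomyocyte-like cells, 34 at 0 h and 45 at 6 h, were too few to be compared. Nr1d1 had 1 UMI at 0 h and 8 at 6 h in them (log2 ratio 2.22, -0.68 to 7.69), and Dbp had 0 and 6 UMIs, neither of which settles a direction. In dendritic cell-like cells, 15 and 8, Per1 had 10 and 2 UMIs (-2.37, -5.60 to -0.14).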
